A study of Sus scrofa with 8 samples.

Results

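The genes described are 5 markers of T cells and natural killer (NK) cells, CD247, GNLY, CD2, CD3E and CD8A, measured in liver RNA of 8 pigs on the Affymetrix porcine array. They were taken by gene name, as every probe set (the group of short probes that reports on 1 transcript) whose array annotation gives exactly 1 of these symbols, dim probe sets included. The rule found 5 of 6765 genes named on the array, by 8 of its 24123 probe sets: 4 for CD247 and 1 for each other gene. The animals were 4 Korean native pigs (KNP), an indigenous breed, at 7 months of age and 4 Yorkshire pigs (YS), a commercial breed, at 6 months. Per the labels the pigs shared the same housing and feeding conditions, the RNA came from the tip of the liver's largest lobe, and each array is a biological replicate. No treatment or allele is named for either breed. Since age follows breed, no difference below separates the effect of breed from that of age, and any hybridization batch that followed breed cannot be told apart from it. The comparison asks whether the livers of the breeds differ in these transcripts.

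T cells recognise peptides through a receptor whose own tails are short, so the signal is passed on by the CD3 chains and by the zeta chain, CD247, which carry the tyrosine motifs that kinases act on. CD8 binds the class I molecule that shows the peptide, and CD2 holds the T or NK cell to its target. NK cells use CD247 as well, together with its relative FCER1G, behind the activating antibody receptor FCGR3A, and cytotoxic T and NK cells store granulysin, GNLY, in their granules. The liver holds many resident NK and cytotoxic T cells beside its hepatocytes, and in pigs CD8 is also found on many helper T cells. In whole tissue, fewer cells of a type and less RNA per cell cannot be told apart.

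The deposited intensities had medians per array from 153 to 180. Hepatocyte transcripts were bright on every array, as the tissue label implies, with a summed intensity over 11 genes from 352571 to 406106 in KNP and from 556586 to 584841 in YS. Array maxima ran from 50730 to 60066 in KNP and from 83646 to 95919 in YS. Actin control signals from the 3' end exceeded those from the 5' end, a ratio that grows with RNA breakdown, by 4.83 ± 1.88 times in KNP and 10.5 ± 1.45 times in YS (SD, n = 4 per breed; two-sided exact permutation p = 0.0286, which no other division of the 8 arrays into 4 and 4 could lower). The same ratio for the GAPDH control was 3.04 ± 0.705 in KNP and 3.50 ± 0.407 in YS (two-sided exact permutation p = 0.314). Maxima and the ratio for actin thus separated the breeds while that for GAPDH overlapped, and the part of these measures in the results below was not tested. Among probe sets whose mean log2 intensity lay from 7 to 8 and from 8 to 9, where the tested markers lie, the median difference between breeds was −0.03 and 0.02. Above 13, where the hepatocyte genes lie, it was −0.35.

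None of the 5 markers passed the test between breeds. Each was fitted with limma on log2(intensity + 16) across 14399 probe sets, after the dimmest 40% had been left out, with breed as the only term, and called at a Benjamini-Hochberg adjusted p under 0.05. Of the 8 probe sets 6 passed the filter, and 0 of these 6 were called, against a background of 1.03% of all probe sets tested. All 6 had a higher mean in KNP, where 48.9% of all probe sets tested did. Their median difference was 0.74 on the log2 scale, beside −0.01 over all probe sets tested. At an unadjusted p under 0.05, 4 of the 6 were higher in KNP, against 7.07% of all probe sets tested. These 4 report on 3 genes, CD247, GNLY and CD2, and the pair for CD247 share their target. In 2 of the 6, both of CD247, all KNP arrays lay above all YS arrays, against 4.01% of all probe sets tested. The markers and the lists below were chosen with earlier results of these data known. Their counts set beside all probe sets tested are therefore a description and not an unselected comparison.

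**Figure D1:**
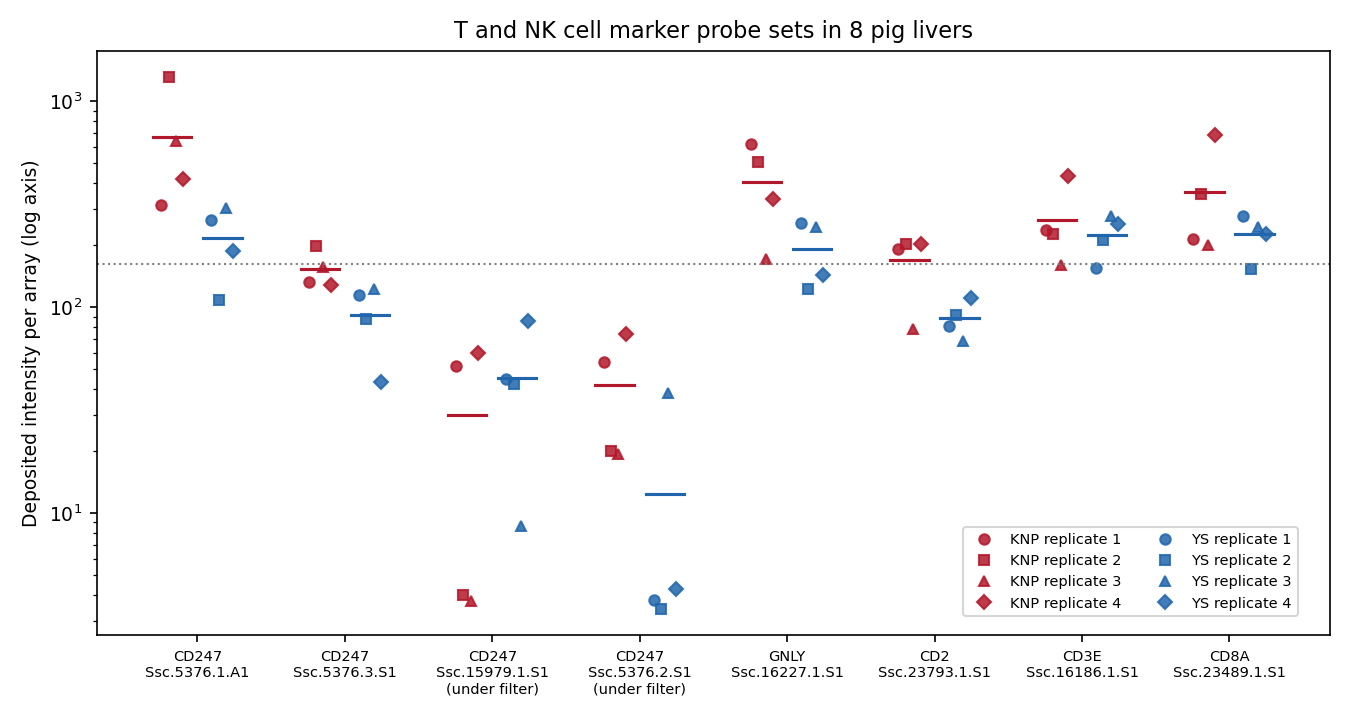
Deposited intensity (log axis) of the 8 probe sets of CD247, GNLY, CD2, CD3E and CD8A on each array, with a symbol per animal, a bar at the mean of each breed (KNP red, YS blue) and a dotted line at the mean of the 8 array medians. The KNP arrays lie above the YS arrays without overlap in the 2 leftmost CD247 probe sets, and the breeds overlap in the other 6.

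CD247, the zeta chain that carries the signal of the T cell receptor and of NK receptors, showed the largest difference of the 5. Its brightest probe set, Ssc.5376.1.A1_at, read 312, 1306, 642 and 421 in KNP replicates 1 to 4 and 265, 109, 304 and 186 in YS replicates 1 to 4. The lowest KNP array lay just above the highest YS array, and KNP replicate 2 stood highest. The means were 670 ± 445 in KNP and 216 ± 86.6 in YS (SD, n = 4 per breed), a log2 difference of 1.44 (SE 0.42, 95% interval 0.53 to 2.36, limma adjusted p = 0.133). Without KNP replicate 2 the difference was 1.06.

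A second CD247 probe set, Ssc.5376.3.S1_at, was dimmer and ordered the breeds the same way. It read 132, 198, 157 and 128 in KNP and 115, 87.5, 122 and 43.4 in YS, below the array median on 6 of 8 arrays. The groups did not overlap, with KNP replicate 2 again highest and YS replicate 4 lowest. The log2 difference was 0.71 (SE 0.32, limma adjusted p = 0.320), and it was 0.45 without YS replicate 4.

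The other CD247 probe sets fell under the filter and were fitted with no filter, over all 23999 probe sets that are not controls. Ssc.5376.2.S1_at read 54.3, 19.98, 19.3 and 73.8 in KNP, while 3 of the YS arrays lay between 3.43 and 4.27 and YS replicate 3 read 38.1. Its difference of 1.06 (SE 0.45, limma adjusted p = 0.346) ran from 0.46 to 2.17 over the alternatives, as both ends are set by the pseudocount. Ssc.15979.1.S1_at, below the array median on all 8 arrays, pointed the other way. Its KNP arrays split into 51.5 and 60.1 for replicates 1 and 4 and 3.98 and 3.73 for replicates 2 and 3, and its YS arrays read 44.9, 42.5, 8.62 and 85.5. The difference was −0.53 (SE 0.57, limma adjusted p = 0.730). The mean of the 4 probe sets of CD247 also lay under the filter and showed 0.67 (SE 0.28, adjusted p = 0.347 with limma and no filter).

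Across the 8 arrays the 4 CD247 probe sets gave 6 pairs. The pair at the top of the range, Ssc.5376.1.A1_at with Ssc.5376.3.S1_at, had Spearman's rho of 0.95 (exact permutation p = 0.00114, adjusted over 6 pairs 0.00685) and Pearson's r of 0.78 (exact permutation p = 0.0263, adjusted 0.0788). Its r was 0.56 after removing the breed means and 0.81 without KNP replicate 2 and YS replicate 2, the arrays farthest from the median. The dim Ssc.15979.1.S1_at ran against both, with r of −0.68 (rho −0.48) and −0.72 (rho −0.60), and exact permutation p of 0.0583 and 0.0257 for r and 0.243 and 0.132 for rho. Adjusted over the 6 pairs, these were 0.117 and 0.0788 for r and 0.292 and 0.256 for rho. Without the 2 arrays farthest from the median they had r of −0.67 and −0.46.

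GNLY, the granulysin that cytotoxic lymphocytes release onto microbes and infected cells, read 619, 505, 171 and 334 in KNP and 257, 123, 244 and 144 in YS (probe set Ssc.16227.1.S1_at). KNP replicates 1, 2 and 4 lay above every YS array, and KNP replicate 3 lay within the YS range. The means were 407 ± 197 and 192 ± 68.6 (SD, n = 4 per breed), with a log2 difference of 0.94 (SE 0.37, 95% interval 0.12 to 1.76, limma adjusted p = 0.265). Without KNP replicate 3 it was 1.29, and without KNP replicate 1 it was 0.70.

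CD2, the adhesion receptor of T and NK cells, read 191, 203, 78.5 and 202 in KNP and 80.9, 92.0, 68.4 and 111 in YS (probe set Ssc.23793.1.S1_at). The KNP arrays other than replicate 3 were nearly equal and lay above every YS array, and replicate 3 lay among the YS arrays. The means were 169 ± 60.3 and 88.1 ± 18.1 (SD, n = 4 per breed), with a log2 difference of 0.76 (SE 0.32, 95% interval 0.06 to 1.47, limma adjusted p = 0.293). Its intensity lay below the array median on 5 of 8 arrays.

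CD3E, the epsilon chain that every CD3 complex needs, showed the smallest difference. It read 237, 227, 161 and 432 in KNP and 155, 211, 277 and 252 in YS (probe set Ssc.16186.1.S1_at). The breeds overlapped across nearly the whole range, and only KNP replicate 4 stood above it. The means were 264 ± 117 and 224 ± 53.3 (SD, n = 4 per breed), with a log2 difference of 0.17 (SE 0.29, 95% interval −0.47 to 0.81, limma adjusted p = 0.825). Without KNP replicate 4 its sign turned, to −0.08.

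CD8A, the alpha chain of the class I coreceptor of cytotoxic T cells, also borne by many NK cells of pigs, read 215, 356, 200.5 and 684 in KNP and 278, 153, 246 and 226 in YS (probe set Ssc.23489.1.S1_at). KNP replicates 2 and 4 lay above all YS arrays and the other KNP arrays lay among them. The means were 364 ± 225 and 226 ± 53.0 (SD, n = 4 per breed), with a log2 difference of 0.51 (SE 0.35, 95% interval −0.26 to 1.28, limma adjusted p = 0.532). Without KNP replicate 4 it shrank to 0.16.

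KNP replicate 4 lay above every YS array in all 5 genes, replicate 2 in all but CD3E, replicate 1 in CD247, GNLY and CD2, and replicate 3 in CD247 alone. KNP replicate 2 was the highest array for CD247 and CD2, KNP replicate 4 for CD3E and CD8A, and KNP replicate 1 for GNLY. KNP replicate 3 was the lowest KNP array in GNLY, CD2, CD3E and CD8A. Among YS arrays replicate 2 was lowest for CD247, GNLY and CD8A. With each gene turned into a z-score over the 8 arrays (its distance from its own mean in SD), the mean of the 5 genes was 0.41, 0.95, −0.50 and 1.19 in KNP and −0.46, −0.95, −0.21 and −0.41 in YS, in the order of the replicates. KNP replicate 3 therefore lay within the YS range.

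All 10 pairs of the 5 genes, each gene by its brightest probe set, had a positive Pearson correlation over the 8 arrays, with a median of 0.50, but no pair passed. GNLY and CD2 had the highest r, 0.73 (exact permutation p = 0.0487, adjusted over 10 pairs 0.312; Spearman's rho 0.55, exact permutation p = 0.171, adjusted 0.545). It was 0.52 after removing the breed means and 0.39 without KNP replicates 1 and 2, so it rests in part on those arrays. CD3E and CD8A, both parts of the receptor apparatus of cytotoxic T cells, had an r of 0.68 (exact permutation p = 0.0732, adjusted 0.312; rho 0.40, exact permutation p = 0.327, adjusted 0.545). Removing the breed means left 0.67, leaving out KNP replicate 4 and YS replicate 1 left 0.33, and leaving out KNP replicate 4 alone left 0.06, so it rests on that array. CD2 with CD8A had an r of 0.59 (rho 0.45), 0.44 after the breed means were removed, and −0.14 without KNP replicates 2 and 4. CD2 with CD3E had an r of 0.54 (rho 0.29), 0.56 after the breed means were removed, and 0.28 without KNP replicates 2 and 4. The exact permutation p of these pairs were 0.115 and 0.179 for r and 0.267 and 0.501 for rho, and their adjusted values were 0.312 and 0.357 for r and 0.545 and 0.626 for rho. Leaving out KNP replicate 4 alone gave 0.39 for CD2 with CD8A and 0.29 for CD2 with CD3E.

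The pairs of CD247 with the other 4 genes are given next. CD247 and CD3E, partners in the same receptor complex, had an r of 0.005 (rho 0.07, exact permutation p = 0.992 and 0.882, the same after adjustment), and −0.23 after removing the breed means. CD247 with CD2 turned from 0.43 (rho 0.36) to −0.19. With GNLY it went from 0.59 (rho 0.64) to 0.21, and with CD8A from 0.47 (rho 0.43) to 0.24. For CD2, GNLY and CD8A in that order the exact permutation p of r was 0.296, 0.125 and 0.240, the adjusted p 0.370, 0.312 and 0.357, the exact permutation p of rho 0.389, 0.0962 and 0.299, and its adjusted p 0.556, 0.545 and 0.545. Without KNP replicate 2 and YS replicate 2 the r of these pairs was −0.002, 0.06 and 0.15, so each rests on those arrays. GNLY had an r of 0.25 with CD3E (rho 0.19) and of 0.46 with CD8A (rho 0.57), with exact permutation p of 0.559 and 0.250 for r and 0.665 and 0.151 for rho, and adjusted p of 0.621 and 0.357 for r and 0.738 and 0.545 for rho. After the breed means were removed these were 0.16 and 0.27, and without KNP replicates 1 and 2 they were 0.46 and 0.86. With 1 array left out, CD247 with CD2 had 0.12 without KNP replicate 2, CD247 with CD8A ran from 0.26 without YS replicate 2 to 0.72 without KNP replicate 4, GNLY with CD8A ran from 0.29 without YS replicate 2 to 0.75 without KNP replicate 1, and GNLY with CD3E had 0.14 without KNP replicate 3.

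**Figure D2:**
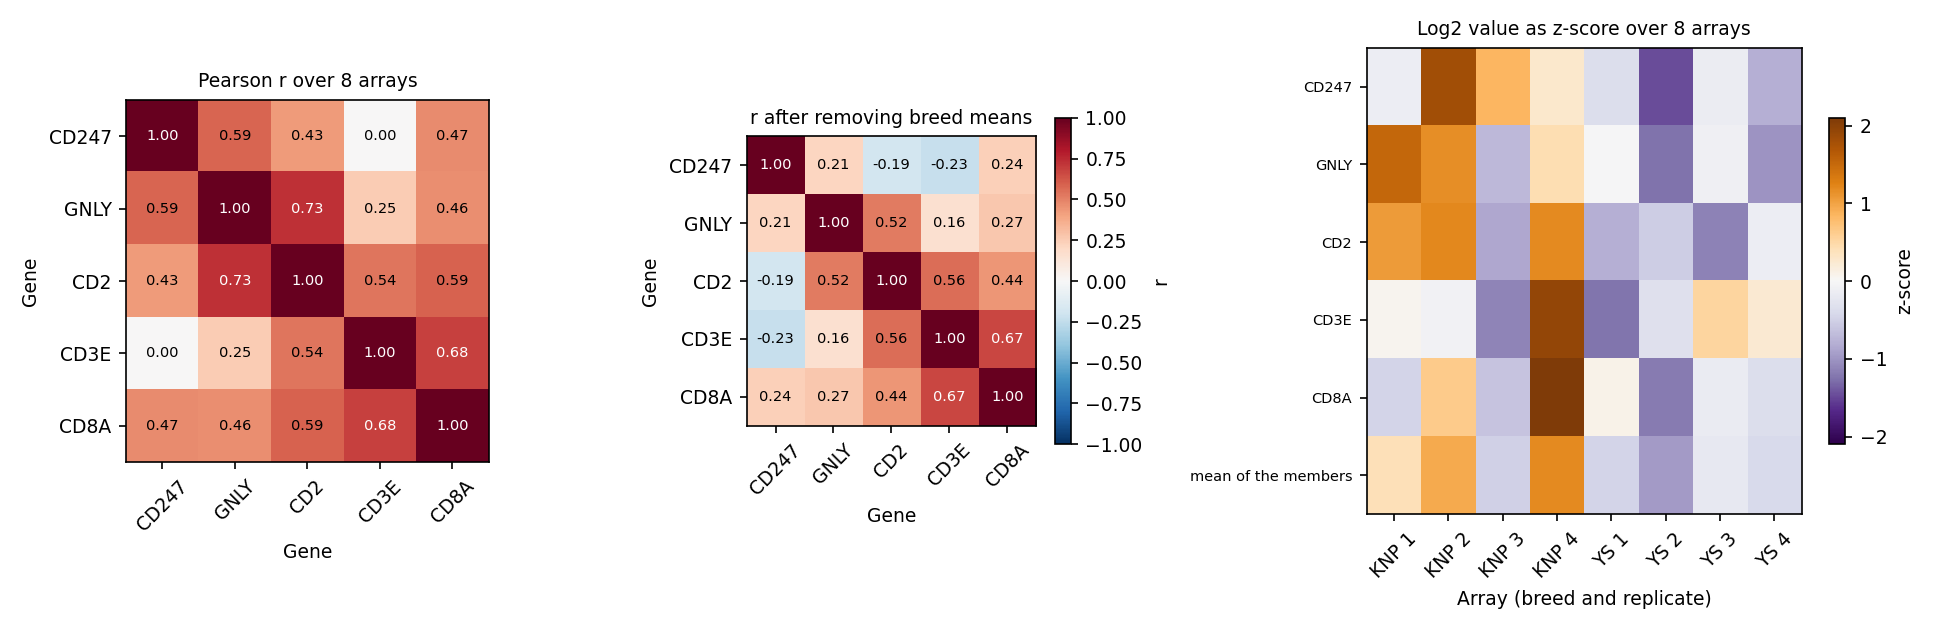
Pearson's r between the 5 genes over 8 arrays (left), the same after subtracting each breed's mean (middle), and the log2 value of each gene as a z-score by array with the mean of the members (right). CD3E with CD8A has 0.68 in the left and 0.67 in the middle panel but 0.06 without KNP replicate 4, CD247 with CD2 turns from 0.43 to −0.19, and in the right panel KNP replicate 4 is the only column above 0 in all genes.

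The partners of these markers on the T cell surface did not share a direction. Of 18 genes listed for the T cell receptor complex, coreceptors and costimulation, 11 are on the array under a single symbol and 7 passed the filter, 4 of them the markers CD247, CD2, CD3E and CD8A. Of the 7, 0 rose, 0 fell and 7 did not pass with limma (2 higher and 1 lower at an unadjusted p under 0.05, beside 7.07% and 8.06% of all probe sets tested). Their median difference was 0.22, and 0.98 with the dimmest 60% left out, where fewer genes were tested. It was 0.02 without YS replicate 1, 0.54 without YS replicate 3, 0.40 without YS replicate 4 and 0.36 without KNP replicate 3. The members other than the markers were CD3D, the delta chain, at 0.22, CD8B, the beta chain of the CD8 coreceptor, at −0.33, and CTLA4, the brake on costimulation, at −0.67, with limma adjusted p of 0.842, 0.666 and 0.315. In the pig RefSeq genes of Sscrofa11.1, CD3D neighbours CD3E and CD8B neighbours CD8A. CD3D read 117, 142, 128 and 89.7 in KNP and 34.4, 78.4, 203 and 149 in YS, so KNP replicate 4, the highest in CD3E, was the lowest KNP array in CD3D. CD8B read 142, 176, 131 and 183 in KNP and 226, 93.6, 301 and 247 in YS, with 3 YS arrays above every KNP array. CD3G, CD4, CD27 and CD40LG lay under the filter, with means between 28.1 and 103. With no filter they showed −0.16, 0.19, 0.03 and −0.58.

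Among kinases and adaptors of T cell receptor signalling, 21 genes listed, 8 were on the array and 5 passed the filter; 0 rose, 0 fell and 5 did not pass with limma, and 0 had an unadjusted p under 0.05. Their median difference was 0.07, and with 1 animal left out it ran from −0.14, without YS replicate 2, to 0.37, without KNP replicate 2. LCK, the kinase that phosphorylates CD247 and the CD3 chains, showed 0.47 (207 ± 94.9 in KNP, 140 ± 42.2 in YS, limma adjusted p = 0.520). LCP2, the adaptor SLP-76, showed 0.38, VAV1, an exchange factor for small GTPases, 0.07, and LAT, the membrane scaffold of the receptor, −0.03, with limma adjusted p of 0.470, 0.936 and 0.977. With no filter the other 2 probe sets of VAV1 showed −1.83 and 0.43, and the other of LCK 0.33. KNP replicate 4 was the highest array in LCK, at 344, and in LCP2, at 602.

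The NK and cytotoxic list held the only call of the T and NK cell genes. Of 30 genes listed 13 were on the array and 9 passed the filter; 1 rose, 0 fell and 8 did not pass, where 0.424% of all probe sets tested were called higher. At an unadjusted p under 0.05, 5 of the 9 were higher and 0 lower, beside 7.07% and 8.06% of all probe sets tested. These 5 were GNLY, SRGN, FCGR3A, FCER1G and TYROBP. KLRK1, GZMH and HCST showed 0.44, 0.30 and 0.07, with limma adjusted p of 0.576, 0.663 and 0.917. CTSW, a protease of cytotoxic lymphocytes, had the only lower mean in KNP among the 9, at −0.29 (limma adjusted p = 0.739). FCER1G, the gamma chain that pairs with CD247 behind FCGR3A, rose in KNP. It read 521, 479, 559 and 665 in KNP and 237, 272, 332 and 293 in YS, with no overlap. The log2 difference was 0.93 (SE 0.17, limma adjusted p = 0.0384). The call held without KNP replicate 2 and was lost without any other animal (adjusted p from 0.0658 to 0.117), and after quantile normalization (0.91, adjusted p = 0.0719).

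FCGR3A, the antibody receptor CD16 of NK cells and some macrophages, read 1309, 1658, 1323 and 1745 in KNP and 722, 704, 1272 and 1088 in YS. The groups did not overlap, though its difference of 0.70 did not pass (SE 0.22, limma adjusted p = 0.159). Its other probe set showed 0.19, fitted with no filter. TYROBP, the adaptor DAP12 of other NK and myeloid receptors, showed 0.65 (SE 0.23, limma adjusted p = 0.217). The median of the 9 genes was 0.59, of the 8 other than GNLY 0.52, and of the 9 without YS replicate 2 0.39. PRF1, perforin, the pore protein stored beside granulysin, lay under the filter at 12.3 ± 3.40 in KNP and 28.9 ± 17.3 in YS (SD, n = 4 per breed). FASLG and IFNG, further products of killer cells, also lay under the filter, at 12.2 and 44.8 in KNP and 26.2 and 58.2 in YS. With no filter PRF1, FASLG and IFNG showed −0.59, −0.58 and −0.02, and SH2D1A, also under the filter, 0.57. In that order the limma adjusted p were 0.490, 0.508, 0.993 and 0.598. FCER1G, FCGR3A and TYROBP are also made by Kupffer cells, the macrophages of the liver, and so do not mark NK cells alone.

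Among 19 lymphocyte cytokine and homing genes, 11 were on the array and 8 passed the filter. With limma 0 rose, 0 fell and 8 did not pass (2 higher and 1 lower at an unadjusted p under 0.05, beside 7.07% and 8.06% of all probe sets tested). Their median was 0.24. ITGB2, the beta chain of leukocyte integrins, showed 0.85 with all KNP arrays above all YS arrays, and CXCR4, a chemokine receptor, 0.93, while IL12RB2, a chain of the interleukin 12 receptor of T and NK cells, showed −0.75 with all KNP arrays below all YS arrays, as in 5.67% of all probe sets tested. Their limma adjusted p were 0.108, 0.210 and 0.180, and S1PR1, which guides lymphocytes out of tissue, had 0.22 and 0.557. The other 2 probe sets of S1PR1 showed −0.36 and −0.13 with no filter. CCR7, IL2RA and IL7R of this list lay under the filter, and with no filter they showed −1.31, −0.59 and 0.34, with none called. CCR7 read 18.4 ± 11.5 in KNP and 70.7 ± 32.4 in YS (SD, n = 4 per breed), with overlap and a limma adjusted p of 0.189. Of 4 genes listed as possible ligands of CD2 and CD8 or parts of them, 3 passed the filter and none was called by limma (1 at an unadjusted p under 0.05 and lower, as were 8.06% of all probe sets tested). CD58 showed 0.03, CD59 0.32, and B2M, the light chain of class I molecules, −0.56 with its brightest probe set, with adjusted p of 0.954, 0.578 and 0.130. The 8 other probe sets of B2M ran from −0.49 to 1.49.

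**Figure D3:**
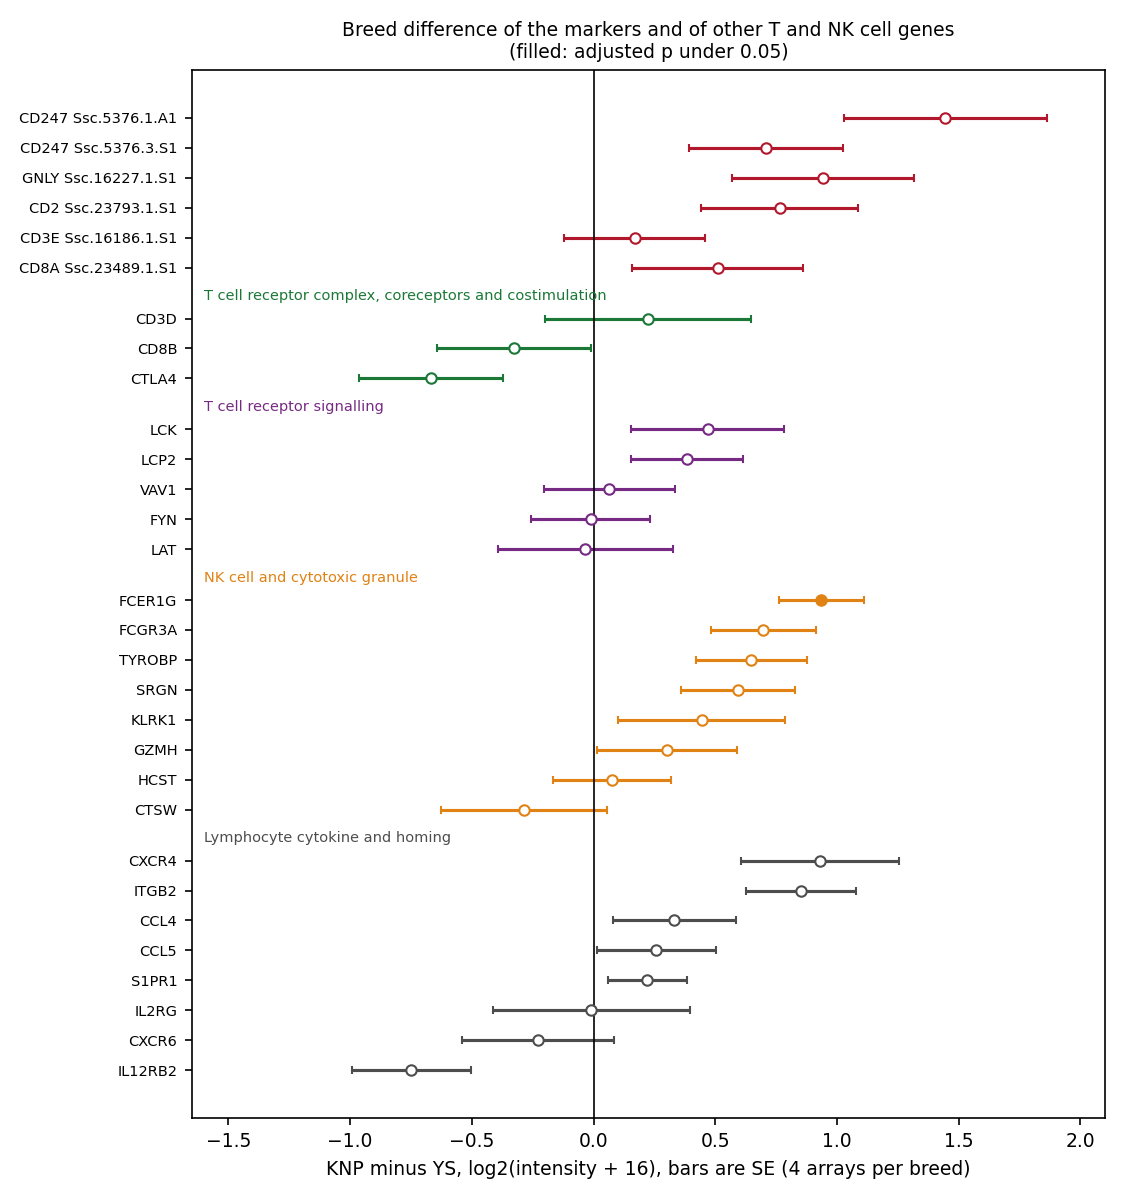
Log2 difference KNP minus YS with its SE for the 6 tested marker probe sets (red) and every other tested gene of the 4 T and NK cell lists, by list. FCER1G at 0.93 is the only filled point, the mark of an adjusted p under 0.05. CD247 lies farthest right at 1.44, and CTLA4 and IL12RB2 lie left of 0 at −0.67 and −0.75.

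Genes shared by all leukocytes and genes of other cell types were measured beside the markers, and their part in the differences was not tested. Of 14 pan leukocyte genes, 8 were tested, 0 rose, 0 fell and 8 did not pass with limma (4 higher at an unadjusted p under 0.05, beside 7.07% of all probe sets tested). Their median was 0.39 (0.24 without YS replicate 2), and their summed intensity ran from 5174 to 6378 in KNP and from 2749 to 5168 in YS, with KNP replicate 4 highest and YS replicate 2 lowest. LAPTM5, a lysosomal protein of leukocytes, showed 1.16 (SE 0.24, limma adjusted p = 0.0501), without overlap. Its other probe set showed 0.33, fitted with no filter. RAC2, a GTPase of blood cells, showed 0.40 and ARHGDIB, an inhibitor of GTPase cycling in blood cells, 0.47, with limma adjusted p of 0.282 and 0.309. With no filter the other probe set of RAC2 showed −0.17 and that of ARHGDIB 1.10. PTPRC, the defining surface protein CD45, showed 0.004 (122 ± 21.6 in KNP, 132 ± 68.9 in YS). The sum of the 13 NK and cytotoxic genes ran from 5794 to 6797 in KNP and from 3173 to 5392 in YS. Most of that sum came from SRGN, at 2358 in KNP and 1582 in YS, and FCGR3A, at 1509 and 947. FCGR3A does not mark NK cells alone, so the gap between breeds in this sum is not a measure of NK cells. The sum of the 11 receptor complex genes overlapped, with 1524 to 2674 in KNP and 1011 to 1956 in YS.

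Macrophage genes, 15 listed, 10 on the array and 9 tested, had a median of 0.39 with 0 called by limma and 0 at an unadjusted p under 0.05. Their sum ran from 28153 to 34822 in KNP and from 21313 to 30712 in YS. C1QC and C1QA, complement subunits made by Kupffer cells, showed 0.63 and 0.49, SPI1, a myeloid transcription factor, 0.46, and CD163, the haemoglobin scavenger receptor, 0.56, with limma adjusted p from 0.337 to 0.499. Of the 9, 7 had a higher mean in KNP; CD14, the endotoxin coreceptor, showed 0.08, CD5L −0.06 and the mannose receptor MRC1 −0.09. The median was 0.17 without YS replicate 1 and 0.20 without KNP replicate 3. The defining marker MARCO lay under the filter at 83.8 and 92.0, and CD68 was not analysed here. KNP replicate 3, the array with the lowest KNP values of GNLY, CD2, CD3E and CD8A, had the highest macrophage sum.

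Of 15 B and plasma cell genes 3 were on the array and 1 was tested, JCHAIN, which joins secreted IgA and IgM, at 0.85 (limma adjusted p = 0.214); with no filter the median of the 3 was −0.05. The sum of these 3 genes ran from 1884 to 3342 in KNP and from 1068 to 2753 in YS, and CD79B and TNFRSF17 lay under the filter with means from 15.01 to 43.6. Of 10 neutrophil genes 6 were on the array and 5 tested, with 0 called by limma (2 higher at an unadjusted p under 0.05, beside 7.07% of all probe sets tested) and a median of 0.61. Without KNP replicate 4 the median was 0.19, without YS replicate 1 0.21, without YS replicate 3 0.39 and with no filter 0.23, and without KNP replicate 1 the list had 1 call. The calgranulin S100A9 showed 1.12, the granule protein LTF 0.88, FCN1 0.61 and S100A8 −0.17, with limma adjusted p of 0.235, 0.289, 0.540 and 0.796. ELANE, also tested, showed −0.14 (limma adjusted p = 0.876). S100A12 lay under the filter at 70.6 in KNP and 129 in YS, a difference of −0.60 with no filter. The sum of the 6 neutrophil genes ran from 511 to 1360 in KNP and from 520 to 767 in YS.

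Markers of red cell precursors, vessels and bile ducts gave no call with limma either (1 erythroid gene lower and 1 cholangiocyte gene higher at an unadjusted p under 0.05, beside 8.06% and 7.07% of all probe sets tested). The 3 erythroid genes tested, of 6 listed, had a median of −0.56 (−0.23 without KNP replicate 2, −0.33 without YS replicate 4, −0.86 without YS replicate 3), with AHSP, which guards alpha globin, at −0.91, ALAS2, the first enzyme of haem synthesis in red cells, at −0.56 and HBB at 0.08. The 6 endothelial genes tested, of 10, had a median of 0.18, with VWF at 0.53, PECAM1 at 0.16, CDH5 at 0.21, ENG at 0.21, LYVE1 at −0.13 and TEK at −0.14; it was 0.05 without YS replicate 2, 0.06 without YS replicate 4 and 0.07 without KNP replicate 2. The 3 cholangiocyte genes tested, of 7, had a median of 0.43 (0.65 without KNP replicate 3), with EPCAM at 0.65, KRT18 at 0.43 and SPP1 at 0.38. KRT19, SOX9 and CFTR lay under the filter. Across the tested genes named here the limma adjusted p ran from 0.246, for EPCAM, to 0.888, for LYVE1. Sums overlapped between the breeds in each, with 1597 to 3600 in KNP and 2080 to 5463 in YS for the erythroid genes, 3419 to 4716 and 3157 to 4667 for the endothelial genes, and 4039 to 6688 and 3354 to 4363 for the cholangiocyte genes. Most of the cholangiocyte sum came from KRT18, at 4081 in KNP and 2946 in YS, so it is not a measure of bile ducts.

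Of 11 tested hepatocyte genes 7 fell in KNP, 0 rose and 4 did not pass, where 0.611% of all probe sets tested were called lower. Albumin, ALB, fell by 0.69, AHSG by 0.86, TF by 0.70, HP by 0.66, APOA1 by 0.60 and FGB by 0.60, with limma adjusted p from 0.0190 to 0.0478. The 7 calls became 0 without YS replicate 1, 3 or 4, 1 without YS replicate 2, and 3 without KNP replicate 1. The median of −0.60 shrank to −0.03 after quantile normalization, with 0 called by limma there and with cyclic loess (2 at an unadjusted p under 0.05 in each), whereas the markers stayed near their values there, at 1.44 for CD247 by its brightest probe set, 0.97 for GNLY, 0.90 for CD2, 0.19 for CD3E and 0.54 for CD8A.

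**Figure D4:**
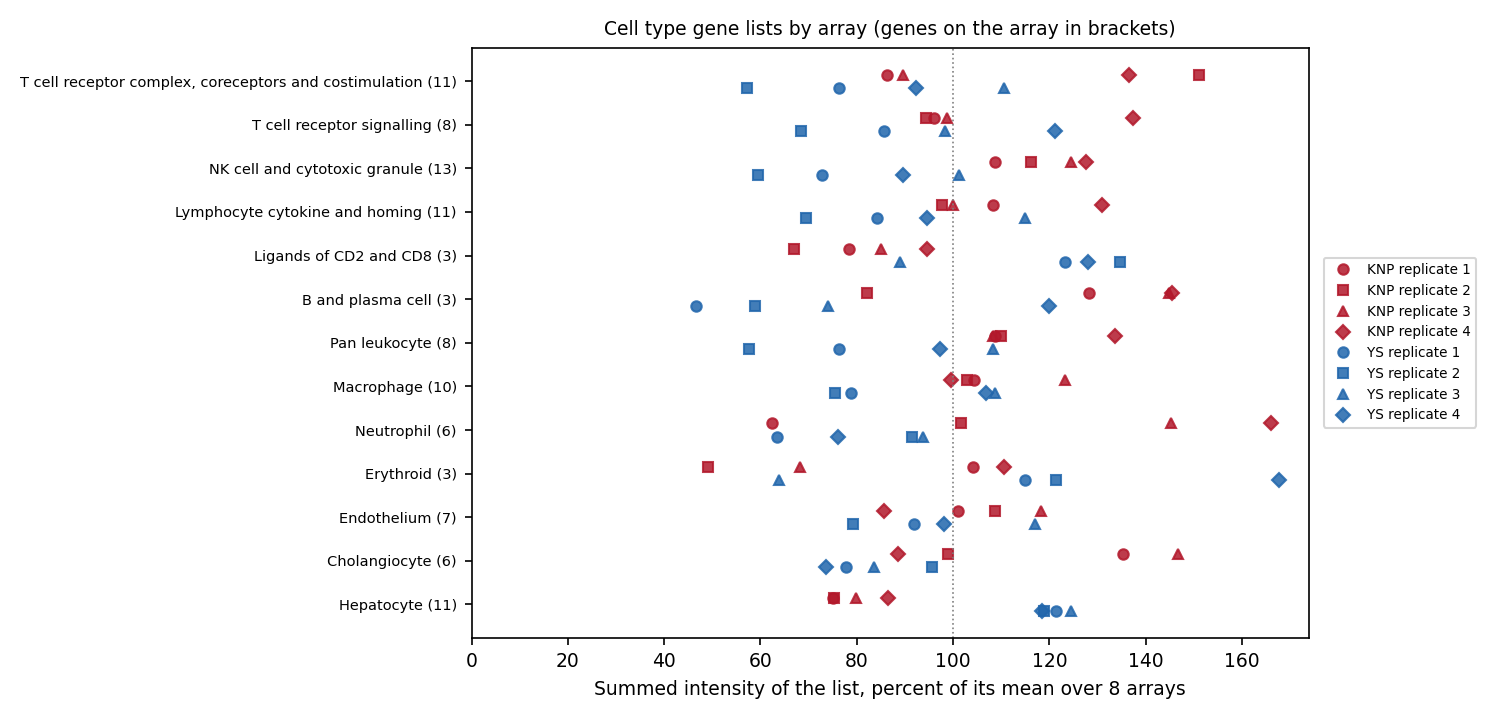
Summed intensity of each gene list on each array as a percentage of the list's mean over 8 arrays (KNP red, YS blue, a symbol per animal). The breeds do not overlap for the NK and cytotoxic, pan leukocyte and hepatocyte lists and overlap for the others. YS replicate 2 is lowest for the T cell, NK, lymphocyte cytokine and homing, pan leukocyte, macrophage and endothelium lists. The pan leukocyte gap is narrow, 5174 against 5168, and SRGN and FCGR3A make up most of the NK and cytotoxic sum.

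The genes whose levels ran most like the mean z-score of the 5 markers over the 8 arrays were not lymphocyte genes by name. Of 5418 genes compared, 13 had an r over 0.9 and 16 an r under −0.9. The first 8 were MED17, a subunit of the Mediator complex, at 0.96, PSMF1, a proteasome inhibitor, at 0.96, FABP5, a fatty acid binding protein, at 0.95, CYR61, a matrix protein, at 0.94, NUMA1, a spindle protein, at 0.94, VIM, vimentin of mesenchymal cells and leukocytes, at 0.94, CDC23, of the anaphase promoting complex, at 0.93, and CDKN2AIPNL at 0.93. After the breed means were removed these values ran from 0.84 to 0.93. They describe the pattern over 8 arrays that share a breed difference, and carry no test. CYR61 read 1141, 1847, 892 and 1552 in KNP and 720, 551, 678 and 748 in YS, with no overlap, and did not pass (log2 0.95, limma adjusted p = 0.0821). Among the other T and NK cell genes FCGR3A was nearest, with an r of 0.83, followed by CXCR4 at 0.78 and FCER1G and LCP2 at 0.73 each. With the breed means removed these became 0.63, 0.56, 0.24 and 0.58, and FYN (0.73, from 0.49) and IL2RG (0.69, from 0.47) lay above FCGR3A. CD3D, CD8B and LAT had 0.18, 0.16 and −0.09, and with the breed means removed 0.07, 0.63 and −0.09. Single genes of other lists ran as close, with RAC2 at 0.88, LAPTM5 at 0.87, EPCAM at 0.83 and PECAM1 at 0.80, but their lists did not follow as a whole. The other endothelial genes were VWF at 0.50, ENG 0.18, CDH5 0.08, LYVE1 −0.59 and TEK −0.70. The other cholangiocyte genes were SPP1 at 0.29 and KRT18 at −0.12. Among pan leukocyte genes ARHGDIB had 0.76, PTPRC 0.17 and CORO1A 0.16. With the breed means removed PECAM1 had 0.81, RAC2 0.72, LAPTM5 0.70, EPCAM 0.64, SPP1 0.14 and KRT18 −0.98. The hepatocyte genes then ran from −0.57, for HNF4A, to 0.94, for TTR, which had −0.38 before. A close run with the markers within breeds was thus not particular to T and NK cell genes.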

How the data were processed

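The authors deposited 1 intensity per probe set and array on a linear scale; the submitters' processing notes name GCOS 1.3, and its signal algorithm is not given in the sources used here. As a scaling by array, the mean of the values between percentiles 2 and 98 was 499.8 on each. The table holds no detection calls, and the number of arrays limits the precision. The 124 probe sets named as Affymetrix controls were left out. Array medians differed by 0.22 on the log2(intensity + 16) scale, under the limit of 0.5, so no normalization was added. The fit used limma 3.58.1 in R 4.3.3 (lmFit, eBayes with an intensity trend, two-sided) and was tested on simulated data. Intervals are limma's 95%.

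Symbols came from the array annotation, which gives 10099 probe sets a single symbol; 9989 matched the pig RefSeq table, with no symbol that differed. The brightest tested probe set stands for a gene in the 13 lists. Other probe sets of a listed gene can differ from it in size and sign, as for TEK, with −0.53 and 0.84 beside −0.14. The markers and lists were chosen with earlier results of these data known. Named are the 5 markers, from each list the 4 genes with the smallest p and up to 6 called, and the 8 genes most like the markers' mean z-score; other genes were named after their values were seen. Correlations used two-sided exact permutation of all 40320 pairings (scipy 1.17.1). The same replicate numbers name different animals, and same-numbered animals had correlations of deviations from −0.02 to 0.05, so no pairing was used.

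Alternatives were quantile normalization, cyclic loess, median centring, pseudocounts of 1 and 64, no filter, a filter of 60%, array weights, no intensity trend, a replicate block, a threshold of 0.01, the mean of a gene's probe sets and each animal left out. A further alternative, chosen after seeing the data, left out the 64 reporter probe sets, of which 2 had been tested and 1 called.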

Additional observations from a re-analysis of the deposited data

Results flagged for a closer look

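In groups of 4 arrays, 1 animal stood apart from the other 3 in 7 of 102 groups checked on the log2 scale, by a gap over Dixon's 95% limit for 4 values; chance gives about 1 in 20. CD2 in KNP replicate 3 read 78.5, against 191 to 203 in the other KNP animals. The dim CD247 probe set Ssc.5376.2.S1_at read 38.1 in YS replicate 3, against 3.43 to 4.27 in the other YS animals. LCP2 read 602 in KNP replicate 4, against 389 to 405. ARHGDIB read 1101 in KNP replicate 4, against 829 to 860. PECAM1 read 841 in KNP replicate 3, against 1097 to 1103. HBB read 433 in KNP replicate 1, against 572 to 589. S100A8 read 129 in YS replicate 4, against 98.7 to 101.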

How the results depend on the processing

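The 149 probe sets called in all became 13 with quantile normalization, 95 with median centring (57 higher, 38 lower), 14 with cyclic loess, 35 with no filter, 13 with no intensity trend, 5 at a threshold of 0.01 and 8 with a replicate block, and ran from 8 to 117 with 1 animal left out (13, 24, 8 and 15 without YS replicates 1 to 4, 50 and 73 without KNP replicates 1 and 3). Of 145 values of the marker differences under alternatives, 144 kept their sign and stayed uncalled; CD3E turned to −0.084 without KNP replicate 4 and ran from −0.084 to 0.36 with 1 animal left out. The 1 call of the NK and cytotoxic list became 0 with quantile normalization, cyclic loess, no filter, no intensity trend, the replicate block and the threshold of 0.01, and lay between 0 and 1 with 1 animal left out; the pan leukocyte list gained 1 call with a pseudocount of 64, median centring, array weights and the dimmest 60% left out, and the 7 hepatocyte calls became 0 with no filter, no intensity trend, the replicate block and the threshold of 0.01. Same-numbered animals did not deviate together, no KNP array correlated best with its own number, and with the replicate block CD247 by its brightest probe set kept 1.44 (adjusted p = 0.227). The correlation of CD247 with CD3E turned to −0.0011 with a pseudocount of 64, −0.028 with quantile normalization and −0.031 with cyclic loess, and ran from −0.13 to 0.19 with 1 animal left out; no pair passed under any alternative run. The median of the listed possible ligands of CD2 and CD8, 0.028, turned to −0.0085 with quantile normalization and −0.012 with cyclic loess. With the dimmest 60% left out, CD2, CD3E and Ssc.5376.3.S1_at lay under the filter and gave no value; the mean of the CD247 probe sets, under the filter of 40%, was fitted with no filter alone. The causes were not tested. Markers near or below the array medians, and the absence of detection calls, limit how small a difference could be seen.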
